A study of Mus musculus with 2 samples.

Results

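The BCL-2 family comprised 9 genes here (Bcl2, Bcl2l1, Mcl1, Bax, Bak1, Bcl2l11, Bid, Bbc3 and Pmaip1) of 27998 genes in both matrices. They were chosen by their symbols, and all 9 were present once in each matrix. Raw UMIs (unique molecular identifiers, which count captured RNA molecules) were read in cells with at most 10% of their UMIs in mitochondrial genes. Single cells had been prepared from mouse embryos at E11.5, from the face where the nasal and maxillary processes meet to form the upper lip and primary palate. One library came from wild-type C57BL/6J embryos and one from Crect; ROSA26-lacZ embryos of the same listed strain and age, each from a pool of 4 to 5 embryos. Crect is a Cre transgene and ROSA26-lacZ a Cre reporter allele; of 1125 Cre UMIs in the second library, 936 lay in ectoderm, at 78.7 CPM there and 0.59 CPM in mesenchyme (CPM, a gene's UMIs scaled to 1000000 UMIs of the class). With 1 library per genotype, differences between the genotypes have no replicate check.

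Proteins of this family set whether the outer mitochondrial membrane is opened during apoptosis. BCL2, BCL-XL (from Bcl2l1) and MCL1 keep cells alive by binding their pro-death relatives, BAX and BAK form the pores, and the BH3-only proteins BIM (from Bcl2l11), BID, PUMA (from Bbc3) and NOXA (from Pmaip1) relay stress and death signals to both groups. NOXA binds chiefly MCL1. Programmed cell death accompanies the loss of epithelium where facial processes fuse.

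The files held 7966 wild-type and 6894 Crect; ROSA26-lacZ barcodes, beside about 8000 and 7000 cells stated by the submitters. Within the mitochondrial limit lay 7909 and 6687 cells, with 126296568 and 126395819 UMIs and medians of 14112 and 17581 UMIs per cell. The libraries shared 76 barcode sequences. After doublet removal, 7734 and 6305 cells were placed in classes rebuilt here from marker genes, with the 9 members held out: mesenchyme-like (6152 and 5245 cells), ectoderm-like (964 and 660), erythroid-like (233 and 136), endothelium-like (218 and 117), macrophage-like (52 and 32), neuron-like (33 and 81) and glia-like (30 and 21). The 8 mesenchymal markers summed to 3223 and 2910 CPM in mesenchyme and to 528 and 482 in ectoderm. The 9 ectodermal markers summed to 1628 and 1847 in ectoderm and to 32.2 and 41.4 in mesenchyme.

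In the mm10 annotation (GENCODE vM21), Bcl2 lies at chr1:106538178-106714274, Bcl2l1 at chr2:152780668-152831728, Bcl2l11 at chr2:128126038-128162547, Mcl1 at chr3:95658788-95663176, Bid at chr6:120891930-120916853, Bbc3 at chr7:16308393-16318205, Bax at chr7:45461697-45466898 and Bak1 at chr17:27019810-27029009. Exons of Bax overlap Gm45808 on the same strand, and exons of Bid, Bak1 and Bcl2 overlap Bcl2l13, Ggnbp1 and D630008O14Rik on the opposite strand; the sources used here do not say how strand was counted, so UMIs of these pairs may be shared. Upstream sequences (250 bases before the start, RefSeq, GRCm38.p6, in transcript direction) are shown for Bid and Bbc3, which were both called higher in ectoderm and lower in G2/M below, and for Bax, whose window alone among the 13 windows of 8 members held the 10-base p53 half-site, in capitals. Of 32851 RefSeq windows of this length, 7.13% held that half-site, a palindromic pattern searched on both strands. The 13 windows searched did not include Pmaip1. A match is a description of the letters only.
Bid, chr6:120916825-120917074, minus strand: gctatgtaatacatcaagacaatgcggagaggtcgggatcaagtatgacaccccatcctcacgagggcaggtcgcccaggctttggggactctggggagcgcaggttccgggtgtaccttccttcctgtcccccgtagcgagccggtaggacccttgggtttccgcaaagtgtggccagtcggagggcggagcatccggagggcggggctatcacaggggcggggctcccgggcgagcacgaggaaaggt
Bbc3, the most upstream of 3 starts, chr7:16309333-16309582, plus strand: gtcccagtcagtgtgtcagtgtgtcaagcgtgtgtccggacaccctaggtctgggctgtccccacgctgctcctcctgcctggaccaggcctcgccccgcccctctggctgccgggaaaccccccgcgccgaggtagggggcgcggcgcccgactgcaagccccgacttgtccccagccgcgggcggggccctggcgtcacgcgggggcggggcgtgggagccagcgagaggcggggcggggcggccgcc
Bax, chr7:45466899-45467148, minus strand: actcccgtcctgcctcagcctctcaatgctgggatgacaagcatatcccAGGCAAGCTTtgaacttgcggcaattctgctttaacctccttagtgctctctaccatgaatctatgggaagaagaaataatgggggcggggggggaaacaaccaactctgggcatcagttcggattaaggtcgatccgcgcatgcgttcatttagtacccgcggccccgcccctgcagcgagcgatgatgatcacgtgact

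Mesenchyme carried all 9 members, at levels that are given in CPM with the wild-type library first. The survival genes stood at 46.3 and 46.7 (Bcl2), 32.8 and 37.4 (Bcl2l1) and 55.1 and 67.4 (Mcl1). The pore-forming Bax had 238 and 213 and its partner Bak1 53.1 and 60.3. Of the BH3-only genes, Bcl2l11 had 18.0 and 19.6, Bbc3 6.14 and 6.35, Bid 5.18 and 5.35, and Pmaip1 88.4 and 61.6. Bbc3 and Bid were thus counted from 538 and 592, and 454 and 499 UMIs. UMIs count 3′ ends and were not divided by length.

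**Figure D1:**
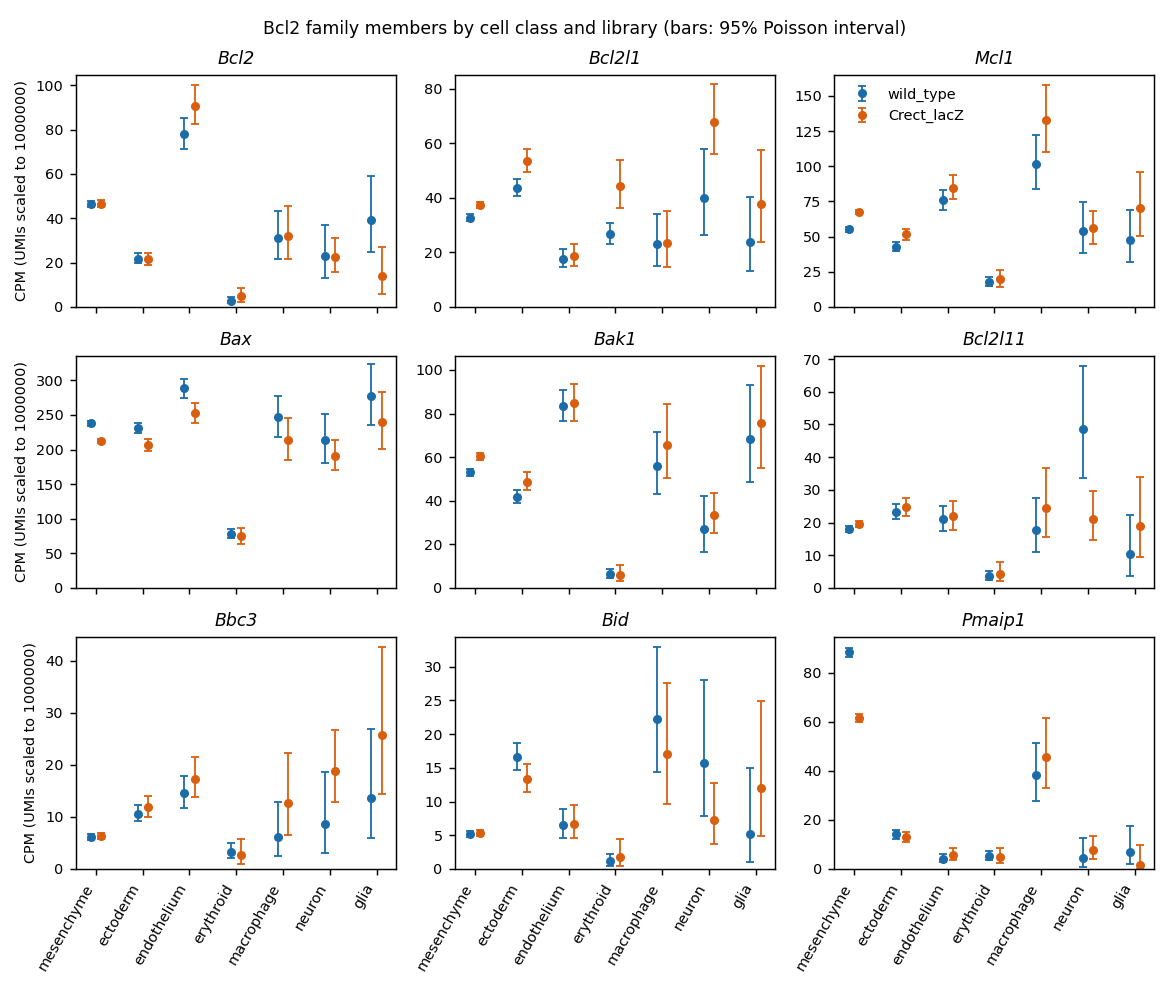
CPM (y axes, one panel per gene) of the 9 members in 7 cell classes (x axis) of the wild_type and Crect_lacZ libraries; points are levels and bars 95% Poisson intervals of counting error. Pmaip1 is highest in mesenchyme (88.4 and 61.6), Bcl2 in endothelium (77.9 and 90.8), and erythroid CPM are low for all but Bcl2l1. Haemoglobin genes took 60.2% and 57.9% of erythroid UMIs, which lowers the CPM of all other genes there.

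Ectoderm differed from mesenchyme in 3 of the 4 BH3-only genes, of which Bid and Bbc3 were higher and Pmaip1 lower, and in Bcl2, which was lower. Pmaip1 had 14.1 and 13.0 CPM in ectoderm against 88.4 and 61.6 in mesenchyme, so that both ectodermal values lay below both mesenchymal ones. It was 5.40-fold lower (95% interval 4.70 to 6.20; edgeR quasi-likelihood test, adjusted p = 5.9e-12). Bid went the other way, with 16.6 and 13.4 in ectoderm against 5.18 and 5.35, and rose 2.91-fold (2.37 to 3.57; edgeR, adjusted p = 1.7e-07). Bbc3 had 10.6 and 11.9 against 6.14 and 6.35 and rose 1.84-fold (1.51 to 2.23; edgeR, adjusted p = 4.1e-05), while Bcl2 had 21.8 and 21.4 against 46.3 and 46.7 and fell 2.10-fold (1.86 to 2.37; edgeR, adjusted p = 2.5e-08). These 4 of 9 members were called (adjusted p under 0.05 over all genes tested and a fold of at least 1.5), where 31.7% of all genes were called, 18% higher and 13.7% lower.

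The remaining 5 members did not pass the fold. Bcl2l1 had 43.8 and 53.6 in ectoderm against 32.8 and 37.4 in mesenchyme, a ratio of 1.41 (1.27 to 1.57). Bcl2l11 had a ratio of 1.30 (1.14 to 1.49), Mcl1 of 0.786 (0.707 to 0.874) and Bak1 of 0.815 (0.734 to 0.906). For Bax the ratio was 0.989 (0.889 to 1.10). Pmaip1 in ectoderm stood at 16.0% and 21.2% of its mesenchymal level, beside 16.4% and 16.6% for the summed mesenchymal markers. The part of mesenchymal RNA in the ectodermal value was not tested, nor was expression of Pmaip1 by ectodermal cells. With each cell thinned to 3000 UMIs, 4.67% and 4.24% of ectodermal cells and 20.4% and 15.2% of mesenchymal cells held a Pmaip1 UMI (19.3% and 18.3%, and 45.04% and 40.6%, before thinning; median depths 14956 and 16316, and 13430 and 17239 UMIs).

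Within the ectoderm, levels were compared over 11 sub-clusters. Bcl2 ranged from 10.3 to 29.1 in the wild-type and from 5.95 to 35.6 in the Crect; ROSA26-lacZ library, and its 11 values in the libraries correlated at r = 0.863 (Spearman 0.918; a description over sub-clusters that share their library). Bax ranged only from 209 to 273 and from 180.3 to 244. Bid ranged from 12.6 to 26.2 and from 6.87 to 20.5, with no shared order (r = -0.286), and Pmaip1 stayed between 6.39 and 21.7 in all 22 values.

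Periderm, the flat outer layer shed at fusion, was represented by a periderm-like sub-cluster of 61 and 37 cells. Bcl2 was low there, at 10.3 and 8.31 CPM against 22.8 and 22.4 in other ectoderm, and fell 2.46-fold (1.59 to 3.80; edgeR, adjusted p = 0.00054). These periderm values rest on 13 and 7 Bcl2 UMIs. It was the single member called, where 15.9% of all genes were (9.03% higher and 6.9% lower). DESeq2 gave a similar log2 change of -1.35 for Bcl2 with an adjusted p of 0.165. The death genes were not called: Bbc3 had 16.6 and 17.8 against 10.1 and 11.49 (edgeR, adjusted p = 0.12), Bid 14.2 and 17.8 against 16.8 and 13.0, Bcl2l11 16.6 and 22.6 against 23.9 and 24.8, and Pmaip1 13.4 and 21.4 against 14.2 and 12.4. Bcl2l1, with 62.4 and 70.0 against 42.3 and 52.4, had a ratio of 1.37 (1.09 to 1.73) and missed the fold.

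Endothelium had the most members called, 6 of 9, where 40.3% of all genes were (18.2% higher and 22.1% lower). Bcl2 had 77.9 and 90.8 CPM against 46.3 and 46.7 in mesenchyme and rose 2.06-fold (1.84 to 2.32; edgeR, adjusted p = 2.2e-32). The pore former Bak1 had 83.5 and 84.9 against 53.1 and 60.3 (1.70-fold higher, 1.51 to 1.92), and the BH3-only Bbc3 14.5 and 17.3 against 6.14 and 6.35 (2.897-fold higher, 2.29 to 3.66). So genes for survival and for death were higher side by side. Bcl2l1 was lower, with 17.8 and 18.8 against 32.8 and 37.4 (1.67-fold, 1.42 to 1.96). Mcl1, at 75.8 and 84.7 against 55.1 and 67.4, passed narrowly (1.503-fold higher, 1.34 to 1.69) and missed the fold in 4 other settings (no filter on low counts, doublets kept, a mitochondrial limit of 5%, no library term). When sums were scaled to all UMIs in place of TMM, Bak1 gave a log2 change of 0.58 and also missed it.

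Pmaip1 had 4.24 and 5.85 in endothelium, from 26 and 27 UMIs, and was 13.4-fold lower than in mesenchyme (11.0 to 16.4; edgeR, adjusted p = 2.7e-137). It stood at 4.79% and 9.50% of its mesenchymal level, beside 6.32% and 7.06% for the mesenchymal markers. Whether endothelial cells express Pmaip1 was not tested. Bax (288 and 252), Bcl2l11 (21.0 and 21.9) and Bid (6.52 and 6.72) were not called.

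Erythroid cells gave values that depended on the scaling, and haemoglobin genes took 60.2% and 57.9% of their UMIs. Bcl2l1, whose product BCL-XL keeps maturing red cells alive, had 26.6 and 44.4 CPM against 32.8 and 37.4 in mesenchyme, and 66.8 and 105.5 against 32.9 and 37.4 once haemoglobin UMIs were left out (ratios of 2.03 and 2.82). TMM scaling, which aligns the bulk of genes, gave a 3.45-fold rise (2.77 to 4.31; edgeR, adjusted p = 2.4e-26), and scaling to all UMIs a log2 change of -0.05 (edgeR, adjusted p = 0.82). The median gene moved from -0.22 to -2.08 on the log2 scale between these scalings. The ratios without haemoglobin UMIs lie between the results of both scalings.

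Bcl2 (2.86 and 4.83 against 46.3 and 46.7), Bak1 (6.43 and 6.15 against 53.1 and 60.3) and Pmaip1 (5.43 and 4.83 against 88.4 and 61.6) were lower in erythroid cells under either scaling, by 3.70-fold (2.60 to 5.26), 2.399-fold (1.78 to 3.23) and 4.13-fold (3.04 to 5.61) with TMM. With Bcl2l1 they made 4 of 9 members called, where 38.7% of all genes were. Pmaip1, from 38 and 11 UMIs, stood at 6.15% and 7.85% of its mesenchymal level and the mesenchymal markers at 6.09% and 6.51%. Whether erythroid cells express Pmaip1 was not tested. Mcl1, Bax, Bbc3, Bid and Bcl2l11 were not called with TMM, and Mcl1, Bax and Bbc3 changed sign when scaled to all UMIs.

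**Figure D2:**
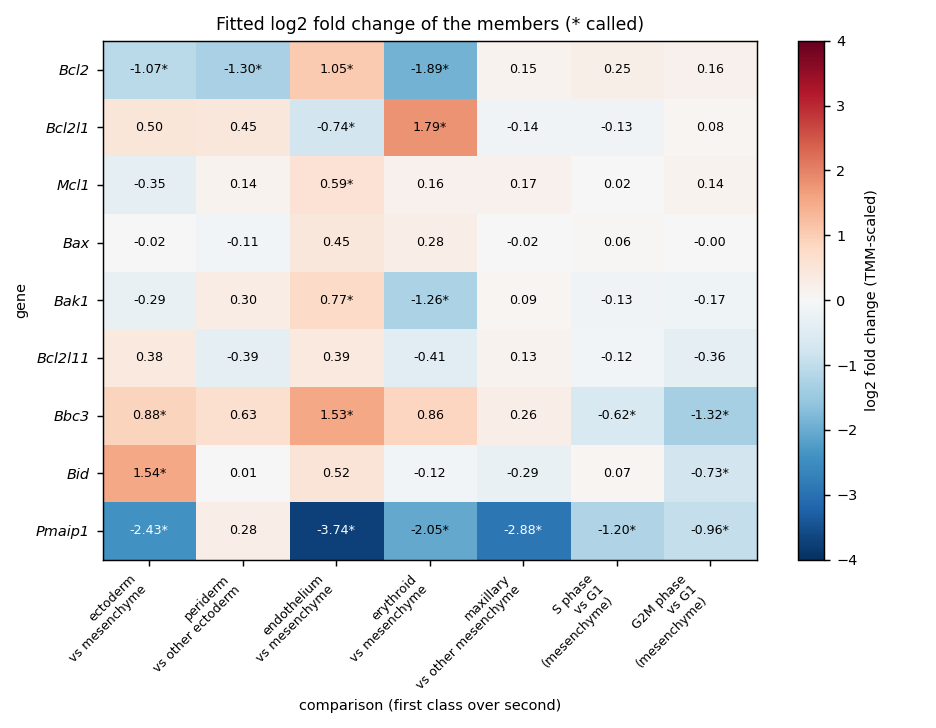
Fitted log2 fold changes of the 9 members (rows) in 7 comparisons (columns), first class over second, with colour from blue (lower) to red (higher) and a star where a member was called. Pmaip1 is called lower in 6 of the comparisons, whereas Bax is called in none; the erythroid values of Bcl2l1, Mcl1, Bax and Bbc3 change sign when scaled to all UMIs.

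Small classes are described without a test. Macrophage-like cells had the highest Mcl1, at 101.5 and 133 CPM (intervals 83.7 to 122 and 110.4 to 158), and Pmaip1 at 38.3 and 45.6, from 43 UMIs in each library. That was 43.3% and 74.1% of the mesenchymal level, beside 11.8% and 8.75% for the mesenchymal markers. Neuron-like cells (33 and 81) had Bcl2l1 at 40.0 and 68.0 and Bcl2l11 at 48.5 (33.6 to 67.8) and 21.2 (14.8 to 29.5). These intervals cover counting error only, and genotype and library cannot be told apart. In glia-like cells Bcl2 had 39.3 and 13.8, from 23 and 8 UMIs, and Pmaip1 4 and 1 UMIs. Pmaip1 lay below the share of the mesenchymal markers in both classes. It stood at 4.84% and 12.8% of its mesenchymal level in neuron-like cells (markers 16.1% and 15.4%). In glia-like cells it stood at 7.73% and 2.80% (markers 11.9% and 10.4%).

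Pmaip1 was the member that varied most among the 12 mesenchymal sub-clusters. From the lowest to the highest it spanned 12.6 to 188 CPM in the wild-type library (14.9-fold) and 6.73 to 136 in the other (20.2-fold). Without the Sox9-led sub-cluster, which held 28 wild-type cells and was left out after the data were seen, the next widest was Bcl2l11 at 2.73-fold and 4.07-fold, while Bbc3 spanned 2.30-fold and 2.14-fold. With it the spans were 3.15-fold and 4.78-fold for Bcl2l11, and 3.71-fold and 2.14-fold for Bbc3, whose highest wild-type value there rests on 5 UMIs. Over all 12, Bax spanned 1.25-fold and 1.33-fold and Mcl1 1.34-fold and 1.33-fold. The order of sub-clusters for Pmaip1 was shared between libraries (r = 0.958, Spearman 0.916, over 12 sub-clusters, as a description).

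Levels of Pmaip1 were highest in the sub-clusters led by Cxxc4, Adra1b and Tgfb2 (188 and 96.9) and by Calb2, Rnf128 and Pax7 (179.5 and 136). Next came those led by Slit2 and Scx (155.5 and 54.0) and by Aldh1a2 and Nrp2 (147 and 125). In wild type the intervals of the first 2 overlapped (179 to 196 and 171 to 188), as did those of the next 2 (144 to 168 and 139.5 to 155.5). A middle range held the Sox9-led sub-cluster (105.9 and 73.7; 28 and 524 cells), one of low depth led by Rpgrip1 and Notch2 (97.6 and 57.4) and the Gsc-led one (78.0 and 35.9). Below these lay both sub-clusters led by Cxcl14 and Dlx5 (49.3 and 41.4 where Lhx8 was also a leading gene, 30.7 and 21.0 where Pthlh was) and the Hey2-led one (27.1 and 17.3). The Shox2-led maxillary-like sub-cluster (15.1 and 6.73) and the Foxp2-led one (12.6 and 9.48) were lowest, with overlapping intervals in wild type. Thinned to 3000 UMIs, 38.1% and 21.9% of cells of the Cxxc4-led sub-cluster held a Pmaip1 UMI, and 4.34% and 1.90% of the maxillary-like cells (70.1% and 60.5%, and 18.4% and 12.7%, unthinned).

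**Figure D3:**
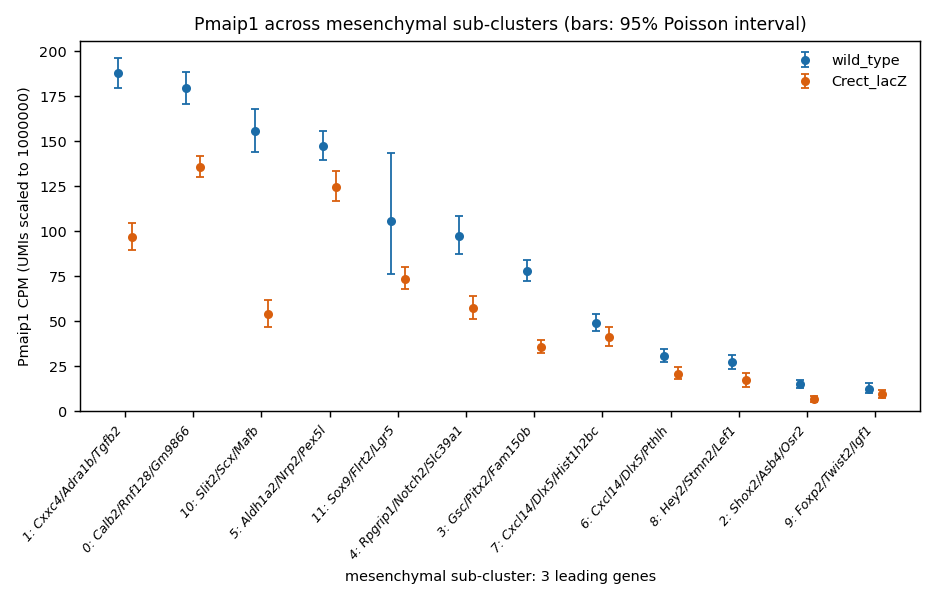
Pmaip1 CPM (y axis) in the 12 mesenchymal sub-clusters (x axis, ordered by the wild_type value and named by their leading genes) of both libraries, with 95% Poisson intervals as bars. Values run from 188 to 12.6 in wild_type, and the Crect_lacZ point is the lower one in each of the 12.

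The maxillary-like sub-cluster was tested against all other mesenchyme. Pmaip1 was the single member called, where 7.31% of all genes were (2.29% higher and 5.02% lower). It had 15.1 and 6.73 against 99.0 and 68.0 and was 7.37-fold lower (6.48 to 8.39; edgeR, adjusted p = 1.1e-14). Without the library term the log2 change was -2.88 with an edgeR adjusted p of 0.105. The other 8 members lay within 0.29 of 0 on the log2 scale, among them Bax (228 and 203 against 239 and 214) and Mcl1 (59.0 and 72.4 against 54.6 and 66.8). The difference in Pmaip1 was present within every scored cell cycle phase: the ratio of maxillary to other mesenchyme was 0.123 and 0.203 in G1, 0.208 and 0.104 in S, and 0.141 and 0.0933 in G2/M, with no upper interval bound above 0.365. With the sub-cluster of low depth left out, a setting added after the data were seen, the log2 differences were -2.71 and -3.34.

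Bcl2l11, which encodes BIM, was 43.3 (38.8 to 48.3) in the 524 chondrogenic-like cells of the Crect; ROSA26-lacZ library, the highest of its 12 values there. The same sub-cluster held 28 wild-type cells with 4 Bcl2l11 UMIs, or 10.3 (2.82 to 26.5). Since 1 library supplied nearly all of these cells, the sub-cluster and the library cannot be told apart. The Slit2- and Scx-led sub-cluster came next, at 32.6 and 36.9, and was the highest of the wild-type values.

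Cell cycle phase, scored from S and G2/M genes that exclude the members, divided the mesenchyme into 649 and 918 G1 cells, 2346 and 1825 S cells and 3157 and 2502 G2/M cells. The phases are ranges of a score, and 356 and 333 cells lay within 0.02 of a boundary. Pmaip1 was highest in G1, at 180.5 and 111 CPM, against 71.1 and 50.3 in S and 87.2 and 57.1 in G2/M. It fell 2.30-fold in S (2.14 to 2.48; edgeR, adjusted p = 2.1e-26) and 1.95-fold in G2/M (1.81 to 2.10; edgeR, adjusted p = 1.2e-18). Bbc3 had 12.8 and 10.7 in G1, 7.36 and 7.42 in S and 4.47 and 4.57 in G2/M. It fell 1.53-fold in S (1.26 to 1.87; edgeR, adjusted p = 0.00043) and 2.50-fold in G2/M (2.02 to 3.10; edgeR, adjusted p = 3.8e-09). Bid had 6.88 and 6.63 in G1 and 6.95 and 6.86 in S, and fell only in G2/M, to 3.83 and 4.04 (1.66-fold, 1.29 to 2.13; edgeR, adjusted p = 0.0010).

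These were 2 of 9 members in S, where 9.21% of all genes were called (5.66% higher and 3.55% lower), and 3 of 9 in G2/M, where 12.8% were (5.27% higher and 7.51% lower); every member called was a BH3-only gene. DESeq2 gave adjusted p-values of 0.151 for Bbc3 in S and 0.134 for Bid in G2/M, and without the library term none of the 5 calls passed, with edgeR adjusted p-values of 0.05 to 0.276. Bax kept to 243 and 213 in G1, 244 and 218 in S and 233 and 209 in G2/M. G1 cells were shallower, with median depths of 9879 and 13117 UMIs against 14951 and 19174 in G2/M, and the part of depth in these differences was not tested.

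G1 shares differed among sub-clusters, so the phases were also compared within each sub-cluster with at least 20 cells of both phases, a setting added after the data were seen. Pmaip1 was lower in S than in G1 in 9 of 9 wild-type and 11 of 12 Crect; ROSA26-lacZ sub-clusters, with median ratios of 0.578 and 0.596. The interval lay below 1 in 7 and 10 of these. In G2/M Pmaip1 was lower in 8 of 9 and 10 of 12, with median ratios of 0.621 and 0.676 and an interval below 1 in 7 and 8. Bbc3 was lower in G2/M in 8 of 9 and 11 of 12 (median ratios 0.336 and 0.470), but with an interval below 1 in only 4 and 6. Bid was lower in 7 of 9 and 10 of 12 (0.485 and 0.552), with an interval below 1 in 3 and 1. The G1 cells of a sub-cluster held few UMIs of these genes, with medians of 6 and 8 for Bbc3 and 3 and 4.5 for Bid. They held 0 Bid UMIs in 1 and 2 sub-clusters, and 0 Bbc3 UMIs in 1 wild-type sub-cluster. Those sub-clusters have no ratio and could not be lower, yet they stand in the totals of 9 and 12. Bak1, which was not called, was lower in G2/M in 7 of 9 and 11 of 12 (0.754 and 0.857), with an interval below 1 in 3 and 3. Bcl2l11, also not called, was lower in 3 of 9 and 11 of 12.

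**Figure D4:**
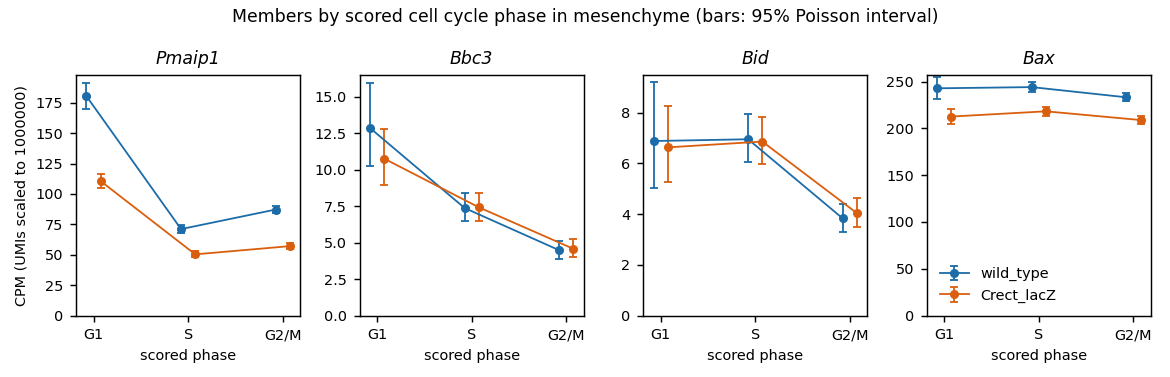
CPM (y axes) of Pmaip1, Bbc3, Bid and Bax in mesenchymal cells scored as G1, S or G2/M (x axes), in both libraries, with 95% Poisson intervals as bars. Pmaip1 drops from 180.5 and 111 in G1 to 71.1 and 50.3 in S, Bbc3 is lowest in G2/M, and Bax stays between 209 and 244.

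Between the libraries, no member differed by 1.5-fold over all cells, where 14.2% of the 14079 genes with at least 100 UMIs did. Pmaip1 differed most, with 66.1 CPM in wild type and 51.3 in Crect; ROSA26-lacZ, a ratio of 0.776 (0.751 to 0.801, counting error only). Mcl1 had 53.01 and 65.8, a ratio of 1.24 (1.20 to 1.28), Bak1 1.17 (1.14 to 1.21), Bcl2l1 1.16 (1.11 to 1.21) and Bax 0.913 (0.898 to 0.928). For Bbc3 (1.04, 0.952 to 1.14) and Bid (0.924, 0.838 to 1.02) the interval held 1. No member passed that fold within mesenchyme or ectoderm either, where 13.9% and 11.2% of genes did. In mesenchyme the Pmaip1 ratio was 0.697 (0.673 to 0.721), and in ectoderm 0.921 (0.748 to 1.13), where its level is near the share seen for mesenchymal markers.

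By mesenchymal sub-cluster, Pmaip1 was lower in the Crect; ROSA26-lacZ library in 12 of 12, with ratios from 0.347 in the Slit2- and Scx-led one to 0.846 and an interval below 1 in 11. Mcl1 and Bak1 were higher in 12 of 12, with median ratios of 1.25 and 1.14 and an interval above 1 in 10 and 5. Bax was lower in 12 of 12, with a median of 0.920 and an interval below 1 in 6. Bcl2 was split, lower in 7 and higher in 5. The 12 sub-clusters are parts of the same 2 libraries, so these counts are not repeats. Over mesenchyme as a whole the ratios were 1.22 for Mcl1, 1.14 for Bak1 and 0.894 for Bax. How many of all genes lie on the same side in 12 of 12 was not counted. The 25 genes of a tissue dissociation list summed to 3714 and 3073 CPM in mesenchyme, and their part in the library differences was not tested. Genotype, pool, depth and library cannot be told apart.

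Other genes of the pathway were read from lists, whose counts are set beside the share of all genes called. Among 10 tested relatives of the family, 4 were higher and none lower in ectoderm than in mesenchyme (31.7% of all genes). One was Bnip3, a mitochondrial BH3-like protein of mitophagy (81.1 and 69.5 against 47.7 and 37.1; 1.82-fold higher). In endothelium, of 9 tested, 2 were higher and 1 lower (40.3% of all genes): Bok, an effector relative of Bax, had 186 and 174 against 16.0 and 15.4 and was 13.1-fold higher, and Bnip3 was 3.11-fold lower. Periderm had 1 higher and 1 lower of 10 (15.9% of all genes), the lower being Bnip3 (2.17-fold). Erythroid cells had 3 higher and 1 lower of 9 (38.7% of all genes). There Bnip3l, needed for clearing mitochondria from red cells, was 2.80-fold higher with TMM (172 and 174 CPM, against 244 and 198).

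Caspases and their regulators (25 genes) were called in shares near or below those of all genes in each comparison of classes. Endothelium had 8 higher and 2 lower (40.3% of all genes), among them the initiator Casp8 (3.88-fold higher) and the death receptor Tnfrsf1a (4.55-fold higher), with a list median of 0.21 beside -0.09 for all genes on the log2 scale. Erythroid cells had 5 higher and 6 lower with TMM (38.7% of all genes). In ectoderm 1 was higher and 2 lower (31.7% of all genes), and 22 were not called. Of 23 tested in periderm, 1 was higher and 1 lower (15.9% of all genes). Periderm had Casp8 at 34.8 and 35.6 against 16.2 and 14.9 in other ectoderm (2.18-fold higher) and the executioner Casp6 at 37.9 and 27.3 against 76.2 and 67.0 (2.23-fold lower). Maxillary-like mesenchyme had 1 lower of 25 (7.31% of all genes). The inhibitor Birc5 was 5.94-fold higher in G2/M, and it belongs to the genes that scored that phase.

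Genes of the p53 response list (23) were called higher in ectoderm in 9 cases and lower in none, where 18% of all genes were higher and 13.7% lower, with a list median of 0.37 beside -0.03 for all genes. Endothelium had 6 higher and 2 lower (40.3% of all genes), erythroid cells 4 and 1 (38.7%), and periderm 4 and 2 of 22 (15.9%). In ectoderm against mesenchyme, the cell cycle inhibitor Cdkn1a was 40.7-fold higher (77.9 and 74.0 against 1.96 and 1.85). Perp, a desmosome-associated membrane protein, was 70.1-fold higher in the same comparison (264 and 221 against 3.59 and 3.44). Bbc3, Pmaip1 and Bax are p53 targets among the members, not given here as a full list. Of these, Bbc3 rose in ectoderm, Pmaip1 fell and Bax was not called. In maxillary-like mesenchyme 1 of 23 was called (7.31% of all genes), the kinase Plk2, 3.30-fold lower (21.5 and 12.3 against 71.5 and 44.2). In S and in G2/M, 2 and 1 of 22 were higher and 2 and 2 lower (9.21% and 12.8% of all genes).

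Of the 25 dissociation genes, 7 were higher and 7 lower in ectoderm (31.7% of all genes called), and 0 and 4 in maxillary-like mesenchyme (7.31%). Of 24 tested, 12 were higher and 5 lower in endothelium (40.3%), 11 and 4 in erythroid cells (38.7%), 1 and 1 in S (9.21%) and 2 and 2 in G2/M (12.8%). Periderm had 6 and 3 of 21 (15.9%). In maxillary-like cells the immediate early genes Jun (74.0 and 65.6 against 195 and 138) and Klf4 (8.83 and 15.9 against 39.8 and 41.2) were 2.29-fold and 3.20-fold lower, in the same direction as Pmaip1. Their part in the Pmaip1 difference was not tested.

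Over 22 sums of 11 classes by library, Tnfaip8 (r = 0.888), Nbl1 (r = 0.8) and Ddit4l (r = 0.785) were the genes most like Pmaip1 among 5861 with a mean of at least 20 CPM. For Bid they were Trappc6a (0.943), Atp6v1f (0.904) and Pts (0.899), for Bbc3 Chd7 (0.849), Tmem123 (0.848) and Nr2f6 (0.838), and for Bcl2 Btbd1 (0.927), Ndufb11 (0.914) and Map7d1 (0.911). Such correlations are over log2(CPM + 1), and the sums share libraries and the erythroid haemoglobin load.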

How the data were processed

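The 2 single-cell libraries, 1 per genotype, were analysed from matrices that the authors deposited as raw UMI counts per gene and cell; per the submitters' processing notes they were made with Cell Ranger 2.0 against mm10, and per the labels' protocols with the 10x 3′ v2 kit. The members and gene lists were chosen with earlier results of these data known. Cells had at least 500 genes and at most 10% mitochondrial UMIs. Scrublet's threshold marked 175 wild-type cells, and only 0.045% of Crect; ROSA26-lacZ cells, where the 382 highest scores were removed instead. Cells were clustered within a joint space (scanpy 1.11.5, Leiden resolution 1.0, values standardised within library, 2000 variable genes without members, list genes and cell cycle genes), and sub-clusters at resolution 0.8 after regressing out phase scores. Classes were named from fixed markers, so differences from the study's own names may come from this; an ectodermal sub-cluster with mesenchymal leading genes was left out.

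UMIs were summed per library and class and tested with edgeR 4.0.16 (quasi-likelihood, TMM, filterByExpr, library term, Benjamini-Hochberg over all genes tested; called where the fold was 1.5 or more and the adjusted p under 0.05). The tests compare classes over 2 libraries, and the edgeR p-values rest mostly on a spread between libraries that is pooled over genes. In the periderm, endothelium and erythroid fits the pooling was complete, so a gene's own spread added nothing there. DESeq2 1.42.0 was an alternative. Levels are CPM of a class, with exact 95% Poisson intervals; shares are thinned to 3000 UMIs; intervals cover counting error only. On simulated counts the edgeR test recovered 23.9% (erythroid) to 89.6% (maxillary) of genes changed 1.5-fold. These shares rest on significance and leave out the fold limit of a call. Recovery by a full call can be no higher and was not measured. In the simulation all genes had the same spread, and the 200 changed genes were not of low count. Recovery in the data may therefore differ. Named genes were all members and, per list and comparison, up to 2 called genes per direction with the largest change and a mean of at least 20 CPM; the 3 genes most like each member came from Pearson's r, and not all are printed. Genotype ratios use all cells and were not tested.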

Additional observations from a re-analysis of the deposited data

How the results depend on the processing

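Of 21 called member results, 9 kept their call under every tested alternative. All 42 values from a single library had the sign of the joint fit. That fit includes the same library and these results had already been called, so a shared sign was nearly fixed in advance and is no check. DESeq2 gave 758 called genes in periderm and 0 members, beside 1912 genes and 1 member by edgeR. It gave 549 genes in maxillary-like mesenchyme, 636 genes and 1 member in S, and 903 genes in G2/M. The edgeR counts there were 1049, 1248 and 1780 genes. Without the library term the calls were 839 genes in periderm, 41 genes and 0 members in maxillary-like mesenchyme, 169 genes and 0 members in S, and 245 genes and 0 members in G2/M. With a fold of 2 in the call they were 3 members in endothelium, 628 genes in maxillary-like mesenchyme, 557 genes and 1 member in S, and 834 genes and 1 member in G2/M. The share of called genes that were higher in S was 84.7% by DESeq2, 98.8% without the library term and 74% at a fold of 2, and in G2/M 66.4%, 93.9% and 51.1%; it was 63.7% in periderm by DESeq2 and 64.2% without the library term. With doublets kept, 2 members were called in maxillary-like mesenchyme, the second being Bbc3 (log2 change 0.77, edgeR adjusted p = 0.0389). Scaling erythroid sums to all UMIs, an alternative chosen after seeing the data, called 11566 genes (4.6% of them higher) and 8 members, and turned the log2 changes of Bcl2l1 to -0.046, Mcl1 to -1.69, Bax to -1.56 and Bbc3 to -1.01. The cause was not tested. The library term above pairs the classes within each library and is the only block. No test between the genotypes was possible because each has a single library. Depth limits Bbc3 and Bid, Bcl2 in periderm, and Pmaip1 outside mesenchyme, where few UMIs were counted.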

Other observations

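Across the 24 sums of 12 mesenchymal sub-clusters by library, the genes most like Pmaip1 among 5913 with a mean of at least 20 CPM were Rara (r = 0.841), Camk2n1 (0.821), Smad6 (0.816), Rerg (0.813) and Alx1 (0.807). The most opposite were Acly (r = -0.784), Med30 (-0.751), Psat1 (-0.750), Fam162a (-0.744) and Ccna2 (-0.711). Rara encodes a retinoic acid receptor, Smad6 an inhibitor of BMP signalling and Alx1 a homeobox factor of frontonasal mesenchyme; Ccna2 is a cyclin of S and G2. These genes were chosen after the values were seen, the sums share libraries, and sub-clusters differ in their share of G1 cells, from 2.1% to 25% in wild type.

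In the Sox9-led chondrogenic-like sub-cluster of the Crect; ROSA26-lacZ library, Bax (187 CPM), Mcl1 (58.6) and Bak1 (51.9) had the lowest of their 12 values there. Bcl2 stood at 55.0, Bcl2l1 at 33.7, Bid at 5.22 and Bbc3 at 9.36, beside 46.7, 37.4, 5.35 and 6.35 in mesenchyme as a whole.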
